A study of Homo sapiens with 4 samples.

Results

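The genes described are LMNA, LMNB1, LMNB2, LBR, TMPO, EMD, SUN1, SUN2, HMGB1 and HMGB2, 10 of the 6828 genes in the deposited table, and they were found by gene symbol. A549 cells, an established human epithelial line from a lung adenocarcinoma, were infected with lentiviruses carrying either a control shRNA (shctrl) or an shRNA against the long noncoding RNA USP2-AS1 (shUSP2-AS1), and RNA was taken 72 h later. Poly(A) RNA was sequenced from 2 libraries per group. The comparison asks which genes depend on USP2-AS1. The sources used here do not say which of the study's USP2-AS1 hairpins was sequenced, and since both knockdown libraries carry the same shRNA name, the loss of USP2-AS1 and other effects of the hairpin cannot be told apart.

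The nuclear lamina is a meshwork of intermediate filament proteins, the lamins, that lines the inner nuclear membrane and anchors chromatin at the nuclear periphery. A-type lamins come from a single gene, LMNA, and B-type lamins from LMNB1 and LMNB2. Membrane proteins such as LBR, TMPO and emerin hold chromatin and lamins together, SUN proteins link the lamina to the cytoskeleton through nesprins, and the HMGB proteins are chromatin proteins that bend DNA. Loss of lamin B1 and of HMGB2 and release of HMGB1 from the nucleus are widely used markers of cellular senescence, a lasting arrest of the cell cycle.

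A normalized read count is the number of reads on a gene divided by a size factor for its library. The reads on listed genes numbered between 10772788 and 14120472 per library, a partial measure of depth. Every row of the table has an adjusted p below 0.05 in the authors' own comparison, so that a listed gene had already been selected for a difference. USP2-AS1 itself had normalized read counts of 23.2 and 24.2 in shctrl and of 2.10 and 6.16 in shUSP2-AS1, and the labels and the targeted RNA pointed the same way. Of 9 lung epithelial markers, KRT7, KRT8, KRT18 and KRT19 were listed, with summed normalized read counts of 168132 to 179244 in shctrl and 106336 to 112823 in shUSP2-AS1, and the other 5 were not analysed here. KRT7, KRT8 and KRT18 had log2 fold changes of -0.49, -0.77 and -1.05, while KRT19 had 0.75. Of 11 markers of other cell types only COL1A1 was listed, with 261 and 293 in shctrl and 530.0 and 618 in shUSP2-AS1. The other 10 were not analysed here, and the part of either marker list in the results was not tested.

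In shUSP2-AS1 cells the B-type lamins, LBR, TMPO and both HMGB genes fell to between 17.4% and 43.9% of their shctrl means, whereas EMD and SUN1 fell slightly, LMNA rose slightly and SUN2 rose to 161% of its shctrl mean. A gene was called at an adjusted p below 0.05 (limma on log2(value + 1), Benjamini-Hochberg adjustment over 6812 genes) with a log2 fold change of 1 or more in size. By this rule 6 of the 10 genes were called lower, against 13.5% of all tested genes. None of the 10 was called higher, against 16.1% of all tested genes. Because the listed genes had been selected by the authors' adjusted p from these same libraries, passing the adjusted p here was close to foregone. Of 6812 tested genes 3362 passed it in the lower and 3449 in the higher direction, so the fold change decided nearly every call. The limma p-values given below for single genes carry the same selection. The count of genes called higher was also 0 with edgeR and with DESeq2. It was 0 at an unadjusted p below 0.05 with the same fold change, which no p threshold could alter, since the largest log2 rise was 0.69 (SUN2). At an unadjusted p below 0.05 alone 2 genes, LMNA and SUN2, were higher. The median log2 fold change was -1.21 for the 10 genes and 0.19 for all tested genes. At an adjusted p below 0.05 alone, 8 were lower and 2 higher, where 49.4% of tested genes were lower and 50.6% higher. The libraries of the groups did not overlap for any of the 10 genes, which was so for 49.3% of tested genes in the lower and 50.6% in the higher direction. In bulk RNA, fewer cells that express a gene and less of its RNA per cell cannot be told apart.

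**Figure D1:**
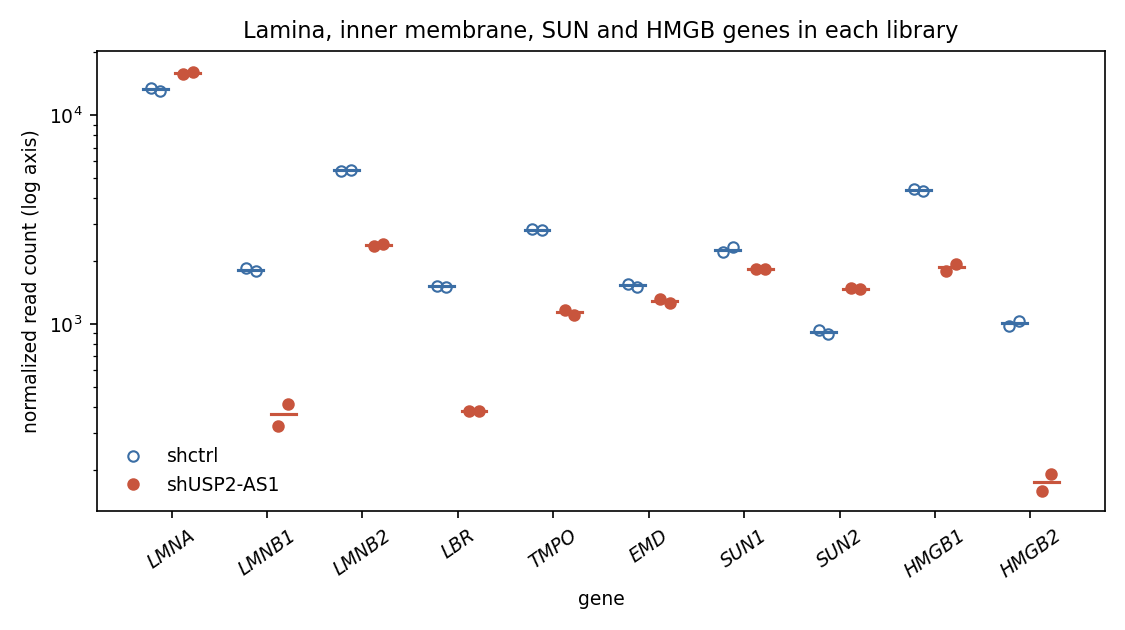
Normalized read counts (log axis) of the 10 genes in each library, with open circles for shctrl, filled circles for shUSP2-AS1 and a bar at the mean of the 2 libraries. LMNB1, LBR and HMGB2 show the widest gaps between groups, with shUSP2-AS1 means of 369, 382 and 175, and SUN2 and LMNA lie higher in shUSP2-AS1.

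Promoter sequences are shown for 4 of the genes that fell, which share a direction, and for LMNA, which did not fall. They run from 250 bases before to 50 bases after a start, on the strand of the gene, from RefSeq on GRCh38.p14, and 8 of the 10 genes had at least 1 promoter in that table (SUN1 and HMGB2 had none). Capitals mark matches on either strand to 3 motifs of cell cycle genes. These were the E2F site (TTTCCCGC, TTTCGCGC, TTTGCCGC or TTTGGCGC), the CHR element bound by the DREAM complex (TTTGAA or TTCGAA) and the CCAAT box bound by NF-Y (CCAAT). Of 35116 promoters of this length, 3.31% held the E2F site, 16.4% the CHR element and 34.6% the CCAAT box.
LMNB1 (chr5:126776373-126776672): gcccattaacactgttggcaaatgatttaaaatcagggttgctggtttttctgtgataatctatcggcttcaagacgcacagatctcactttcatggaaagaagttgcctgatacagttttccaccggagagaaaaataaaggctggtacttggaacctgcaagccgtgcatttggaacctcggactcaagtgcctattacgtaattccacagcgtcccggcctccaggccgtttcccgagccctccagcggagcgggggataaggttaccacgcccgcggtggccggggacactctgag
LMNB2 (chr19:2456910-2457209): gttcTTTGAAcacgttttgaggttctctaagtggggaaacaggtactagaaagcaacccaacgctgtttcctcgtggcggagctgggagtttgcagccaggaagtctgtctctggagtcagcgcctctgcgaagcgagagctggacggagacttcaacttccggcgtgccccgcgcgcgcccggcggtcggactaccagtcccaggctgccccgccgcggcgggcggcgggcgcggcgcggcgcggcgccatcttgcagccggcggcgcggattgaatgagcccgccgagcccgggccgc
TMPO (chr12:98515323-98515622): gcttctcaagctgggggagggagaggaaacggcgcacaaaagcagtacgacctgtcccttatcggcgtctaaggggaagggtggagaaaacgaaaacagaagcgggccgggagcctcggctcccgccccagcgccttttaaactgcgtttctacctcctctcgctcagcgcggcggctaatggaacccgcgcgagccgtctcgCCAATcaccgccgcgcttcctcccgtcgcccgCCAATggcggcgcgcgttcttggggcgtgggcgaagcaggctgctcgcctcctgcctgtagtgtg
HMGB1 (chr13:30465887-30466186): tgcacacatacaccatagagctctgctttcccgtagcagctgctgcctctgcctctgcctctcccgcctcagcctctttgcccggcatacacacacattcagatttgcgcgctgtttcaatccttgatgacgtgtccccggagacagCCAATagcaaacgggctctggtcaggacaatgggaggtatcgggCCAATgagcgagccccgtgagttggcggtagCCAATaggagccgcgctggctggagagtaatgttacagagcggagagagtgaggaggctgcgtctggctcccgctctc
LMNA (chr1:156082323-156082622): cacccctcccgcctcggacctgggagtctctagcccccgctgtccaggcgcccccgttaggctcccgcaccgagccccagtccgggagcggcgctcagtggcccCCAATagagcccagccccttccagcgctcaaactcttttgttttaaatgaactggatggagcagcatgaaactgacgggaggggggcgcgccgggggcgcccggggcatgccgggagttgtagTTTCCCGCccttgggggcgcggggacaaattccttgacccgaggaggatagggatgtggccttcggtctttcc

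The E2F site was found only in LMNA among the promoters of these 8 genes, beginning at position -23 relative to the start. None of the 3 motifs occurred in the LMNB1 promoter shown or in LBR, while another LMNB1 promoter held a CCAAT box. TMPO held 2 CCAAT boxes, beginning at -47 and -15, and the HMGB1 promoter shown held 3. The CHR element was matched in LMNB2 and in another HMGB1 promoter, beginning at -246 in both, and in SUN2, which rose, beginning at -111. CCAAT boxes also occurred in LMNA and SUN2, which rose, and in EMD, which fell slightly. Matches thus occurred both in genes that fell and in genes that rose, and a match or its absence in this window describes these letters alone.

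LMNB1 (ENSG00000113368) encodes lamin B1 and spans 126776623 to 126837020 of chromosome 5 on the plus strand (GRCh38, as are all positions given). Its normalized read counts were 1853 and 1789 in shctrl and 324 and 414 in shUSP2-AS1. Both shUSP2-AS1 libraries were far below both shctrl libraries, and the spread was wider in shUSP2-AS1. The means were 1821 ± 45.4 (SD, n = 2) and 369 ± 63.6 (SD, n = 2). The log2 fold change was -2.31 ± 0.09 (SE, limma adjusted p = 3.54e-13), which ranked LMNB1 120 from the lowest of 6812 genes.

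LMNB2 (ENSG00000176619), on the minus strand of chromosome 19 from 2427638 to 2456959, encodes the other major B-type lamin. It had normalized read counts of 5408 and 5482 in shctrl and 2371 and 2404 in shUSP2-AS1. The libraries of each group lay close together and the groups were apart, with a log2 fold change of -1.19 ± 0.05 (SE, limma adjusted p = 5.82e-13). Tested by limma against a fold change of 2, LMNB2 had an adjusted p of 0.00631.

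LMNA (ENSG00000160789), on the plus strand of chromosome 1 from 156082573 to 156140089, encodes lamins A and C by alternative splicing. Its normalized read counts, the highest of the 10 genes, were 13482 and 13083 in shctrl and 15771 and 16168 in shUSP2-AS1. Both shUSP2-AS1 libraries were the higher ones, by less than the fold change needed for a call. The log2 fold change of LMNA was 0.27 ± 0.05 (SE, limma adjusted p = 5.07e-05), near the median of 0.19 over all tested genes. It was 0.15 with RLE scaling, which moved the median of all tested genes by -0.12.

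Among the membrane proteins of the nuclear envelope, LBR showed the lowest shUSP2-AS1 level relative to shctrl. LBR, the lamin B receptor, binds B-type lamins and heterochromatin protein HP1 and also acts as a sterol reductase. It lies on the minus strand of chromosome 1 from 225401502 to 225428925 (ENSG00000143815). The normalized read counts were 1524 and 1499 in shctrl and 383 and 381 in shUSP2-AS1. Replicates nearly coincided in both groups, and the shUSP2-AS1 mean was 25.3% of the shctrl mean. The log2 fold change was -1.98 ± 0.07 (SE, limma adjusted p = 1.14e-13).

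TMPO encodes the lamina-associated polypeptide 2 isoforms, which bind lamins and the chromatin protein BANF1. It lies on the plus strand of chromosome 12 from 98515579 to 98550351 (ENSG00000120802). TMPO had normalized read counts of 2839 and 2809 in shctrl and 1168 and 1106 in shUSP2-AS1. The groups were well apart, with a log2 fold change of -1.31 ± 0.06 (SE, limma adjusted p = 1.08e-12). The antisense gene TMPO-AS1 shares 646 exonic bases with TMPO, 7.60% of the exonic bases of TMPO. TMPO-AS1 had a mean normalized read count of 98.5 in shctrl and 23.5 in shUSP2-AS1, and whether reads were counted by strand is not given in the sources used here.

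EMD (ENSG00000102119), on the plus strand of chromosome X from 154379273 to 154381523, encodes emerin, an inner membrane protein of the same LEM domain family as TMPO. Its normalized read counts were 1558 and 1507 in shctrl and 1319 and 1263 in shUSP2-AS1. EMD fell by much less than TMPO or LBR, with a log2 fold change of -0.25 ± 0.06 (SE, limma adjusted p = 0.000896), and was not called. Across all other settings without a fold change in the test its log2 fold change lay between -0.37 and -0.19.

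The SUN genes moved in opposite directions. SUN1 and SUN2 encode inner membrane proteins that pair with nesprins to form the LINC complex, the bridge between lamina and cytoskeleton. SUN1 (ENSG00000164828), on the plus strand of chromosome 7 from 816615 to 896435, had normalized read counts of 2198 and 2344 in shctrl and 1829 and 1839 in shUSP2-AS1. SUN2 (ENSG00000100242), on the minus strand of chromosome 22 from 38734725 to 38794143, had 935 and 892 in shctrl and 1479.6 and 1472 in shUSP2-AS1. This gave a log2 fold change of -0.31 for SUN1 (SE 0.06, limma adjusted p = 6.72e-05) and 0.69 for SUN2 (SE 0.06, limma adjusted p = 1.91e-08). Neither reached the fold change for a call. In the annotation of GENCODE release 44, SUN1 shares 15.5% of its exonic bases with GET4 on the same strand and SUN2 shares 13.6% with GTPBP1 on the opposite strand. SUN2 also shares 0.91% with DNAL4 on the same strand, and 5.39%, 4.30% and 2.82% with long noncoding RNA genes on the opposite strand. SUN1 shares 0.67% with a long noncoding RNA gene on the opposite strand. Reads in shared stretches could belong to either gene. For SUN2 the deposited gene length was 6489 bases, against 8354 exonic bases in that release, and the shares for the shorter form were not tested.

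HMGB2 (ENSG00000164104) lies on the minus strand of chromosome 4 from 173331376 to 173334432 and encodes a chromatin protein that is abundant in dividing cells. Its normalized read counts were 981 and 1031 in shctrl and 159 and 191 in shUSP2-AS1. HMGB2 had the lowest log2 fold change of the 10 genes, -2.52 ± 0.10 (SE, limma adjusted p = 4.05e-13), and ranked 71 from the lowest of 6812. The shUSP2-AS1 mean was 17.4% of the shctrl mean.

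HMGB1 (ENSG00000189403), on the minus strand of chromosome 13 from 30456704 to 30617597, encodes a close relative of HMGB2 that acts as an alarm signal outside cells. Its normalized read counts were 4415 and 4339.8 in shctrl and 1800.3 and 1942 in shUSP2-AS1. The groups did not overlap, and the log2 fold change of HMGB1 was -1.23 ± 0.05 (SE, limma adjusted p = 1.29e-12). GENCODE release 44 annotates 47 pseudogenes named after HMGB1, which resemble its messenger RNA, and 1 named after HMGB2. Of these HMGB1P5 and HMGB1P6 were listed, with log2 fold changes of -1.30 and -1.20. Whether reads were shared between HMGB1 and these copies in the counting was not tested, so the HMGB1 value is uncertain to that extent.

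**Figure D2:**
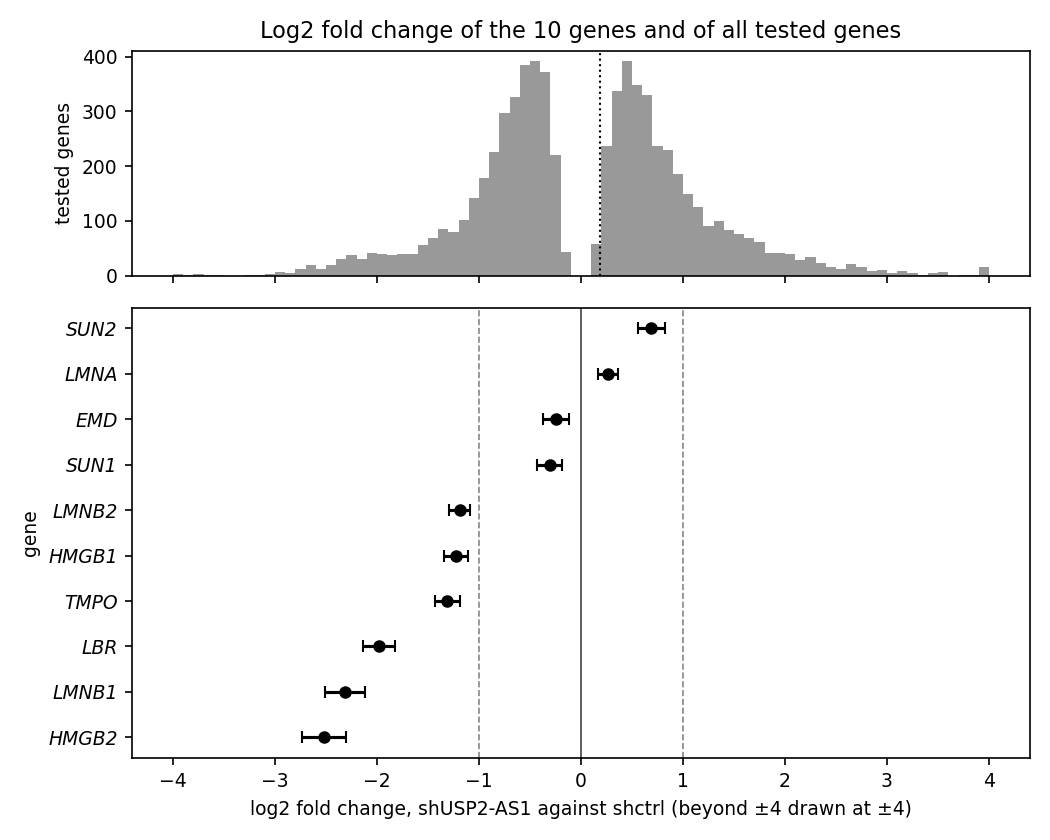
Log2 fold change of shUSP2-AS1 against shctrl, with a histogram of the 6812 tested genes above (dotted line at their median, 0.19) and the 10 genes below (points, with 95% confidence intervals from limma; dashed lines at -1 and 1). The 6 called genes lie between -2.52 and -1.19, and SUN2 and LMNA are the points above 0.

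The proportions between related genes differed as well. A ratio of 2 genes within a library does not depend on the scaling between libraries. The ratio of LMNA to LMNB1 was 7.27 and 7.31 in shctrl and 48.7 and 39.1 in shUSP2-AS1, a difference of 2.58 on the log2 scale. The ratio of LMNB2 to LMNB1 was 2.92 and 3.06 in shctrl and 7.32 and 5.81 in shUSP2-AS1, a difference of 1.12 on the log2 scale. Thus LMNB1 was lower relative to both other lamins in each shUSP2-AS1 library.

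The ratio of HMGB1 to HMGB2 was 4.50 and 4.21 in shctrl and 11.3 and 10.2 in shUSP2-AS1, a difference of 1.30 on the log2 scale. The ratio of SUN1 to SUN2 was 2.35 and 2.63 in shctrl and 1.24 and 1.25 in shUSP2-AS1, a difference of -0.999 on the log2 scale. For each of these 4 ratios the groups did not overlap and the exact two-sided permutation p was 0.333, the smallest that 2 against 2 libraries can give. The differences were therefore larger than the spread between replicates but could not be significant by this test. For LMNA to LMNB1 and for SUN1 to SUN2 the lack of overlap was fixed in advance. The genes of each of these pairs moved in opposite directions, each without overlap between groups. How often the ratios of other pairs of listed genes separate the groups was not tested.

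**Figure D3:**
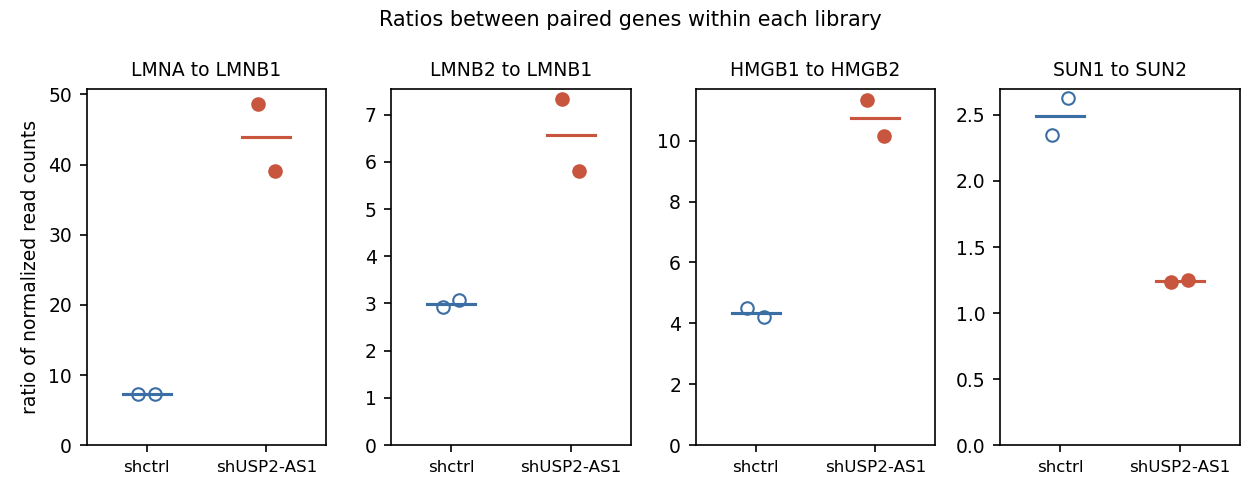
Ratio of normalized read counts between paired genes in each library (open circles for shctrl, filled circles for shUSP2-AS1, bars at the mean of the 2 libraries; each axis starts at 0). The ratio of LMNA to LMNB1 rises from 7.27 and 7.31 in the shctrl libraries to 39.1 and 48.7 in the shUSP2-AS1 libraries, and only the ratio of SUN1 to SUN2 is lower in shUSP2-AS1.

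Levels of different genes were compared per kilobase of the gene length in the table, which for 7 of the 10 genes equals all exons of the gene in GENCODE release 44 joined together. In shctrl the normalized read count per kilobase was 1630 ± 34.6 (SD, n = 2) for LMNA, 1009 ± 9.63 (SD, n = 2) for LMNB2 and 501 ± 12.5 (SD, n = 2) for LMNB1. In shUSP2-AS1 it was 1960 ± 34.5 (SD, n = 2), 443 ± 4.34 (SD, n = 2) and 102 ± 17.5 (SD, n = 2). Of the lamin signal per kilobase, LMNA thus made up 51.9% in shctrl and 78.3% in shUSP2-AS1, LMNB2 32.1% and 17.7%, and LMNB1 16.0% and 4.05%. Summed over the lamins, the level per kilobase was 3141 ± 37.5 (SD, n = 2) with shctrl and 2504 ± 56.3 (SD, n = 2) with shUSP2-AS1, without a test, and this gap depends on the length used: with the canonical transcripts described next it was 5985 ± 93.3 (SD, n = 2) and 5668 ± 116 (SD, n = 2).

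From high to low, the order of levels per kilobase in shctrl was LMNA, LMNB2, EMD, HMGB1, LMNB1, HMGB2, TMPO, LBR, SUN1 and SUN2, and no neighbours in this order overlapped between libraries. In shUSP2-AS1 the order was LMNA, EMD, LMNB2, HMGB1, SUN2, SUN1, TMPO, LMNB1, HMGB2 and LBR, and HMGB2 and LBR, at 72.9 and 66.9, overlapped. SUN2, the lowest gene in shctrl at 141 per kilobase, thus stood above LMNB1, HMGB2, TMPO, LBR and SUN1 in shUSP2-AS1, at 227. The order depends on the length used. With the length of the canonical transcript, 3178 bases in place of 8149 for LMNA, LMNA made up 69.8% of the lamin signal in shctrl and 88.7% in shUSP2-AS1, and LMNB1 10.5% and 2.25%. With that length EMD was above LMNB2 in shctrl, with overlapping libraries, HMGB2 and TMPO were above LMNB1, and SUN1 was above LBR. In shUSP2-AS1 SUN1 was then above SUN2, and both were above HMGB1.

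The other genes of the nuclear envelope, of HMG proteins, of heterochromatin and of senescence were taken from 8 lists with 89 genes in all, of which 49 were listed and tested. Of these 17 were called lower and 4 higher, beside the 13.5% and 16.1% over all tested genes, with a median log2 fold change of -0.57 against 0.19. All 49 had been selected into the table by the authors' adjusted p, so the counts describe the listed genes and not the whole lists.

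Among other inner nuclear membrane proteins and chromatin anchors, 6 of 13 were tested, 5 fell and 1 rose, with a median log2 fold change of -0.53. NEMP1, an envelope protein that binds emerin, was the gene called lower, with normalized read counts of 730.5 and 737 in shctrl and 207 and 247 in shUSP2-AS1 and a log2 fold change of -1.70. TMEM201 had -0.92, TOR1A -0.57 and BANF1, which links LEM domain proteins to DNA, -0.49. TMEM43, which encodes the membrane protein LUMA, rose by 0.93 on the log2 scale. Among LINC complex partners 3 of 8 were tested, and the nesprin genes differed in direction. SYNE1 had a log2 fold change of 0.32 and SYNE2 of -0.41. SYNE3 was called higher at 1.68, from few reads, with normalized read counts of 16.4 and 9.89 in shctrl and 43.1 in each shUSP2-AS1 library.

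Of 6 lamin processing enzymes, FNTB, a subunit of the farnesyltransferase that modifies lamin tails, was called lower with a log2 fold change of -1.09, and ICMT had -0.24. The other 4, ZMPSTE24 among them, were not analysed here. Of 14 genes of mitotic envelope breakdown and reassembly, 9 were tested, 8 fell and 1 rose, with a median of -0.87. CDK1 at -2.40 and CCNB1 at -2.25, the kinase and cyclin that drive lamina disassembly at mitosis, VRK1 at -1.75, a kinase that releases BANF1 from chromatin, and RCC1 at -1.33, the chromatin-bound activator of the GTPase Ran, were called lower. CHMP4B, an ESCRT subunit that seals the envelope, rose by 0.22 on the log2 scale.

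All 8 tested genes of a list of 13 other HMG proteins fell, with a median log2 fold change of -0.73. HMGB3 had normalized read counts of 2612 and 2516 in shctrl and 1039 and 1004 in shUSP2-AS1, which is -1.33 on the log2 scale. HMGN1, which encodes a nucleosome-binding protein, had -1.59 and SSRP1, a subunit of the histone chaperone FACT, -1.02, and these 3 were called lower. HMGN2 had -0.86 and HMGA1, an architectural protein of senescence-associated heterochromatin, -0.59. Of 8 receptors and partners of extracellular HMGB1, only THBD, which encodes thrombomodulin, was tested, with a log2 fold change of 0.87.

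Of 15 genes of HP1 proteins and senescence-associated heterochromatin, 10 were tested, 9 fell and 1 rose, with a median of -0.44. The histone methyltransferase genes SUV39H1 at -1.46 and SUV39H2 at -1.10 and the corepressor gene TRIM28 at -1.19 were called lower. The HP1 genes CBX1, CBX3 and CBX5 had log2 fold changes of -0.61, -0.46 and -0.41. ASF1A, a histone chaperone gene, rose by 0.45 on the log2 scale.

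Of 12 other senescence markers 10 were tested, of which 5 were called lower and 3 higher, with a median log2 fold change of -0.69. CDKN1A, which encodes p21, had normalized read counts of 7436 and 6989 in shctrl and 20618 and 20765 in shUSP2-AS1, which is 1.52 on the log2 scale. GLB1, the gene of the lysosomal beta-galactosidase, had a log2 fold change of 1.07. The proliferation marker MKI67 had -2.39 and E2F1 -2.12. The genes of the secreted factors CXCL8, IGFBP3 and IL6 were called lower, at -1.23, -1.10 and -1.03. The list thus held members in both directions beside the lower LMNB1 and HMGB2.

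**Figure D4:**
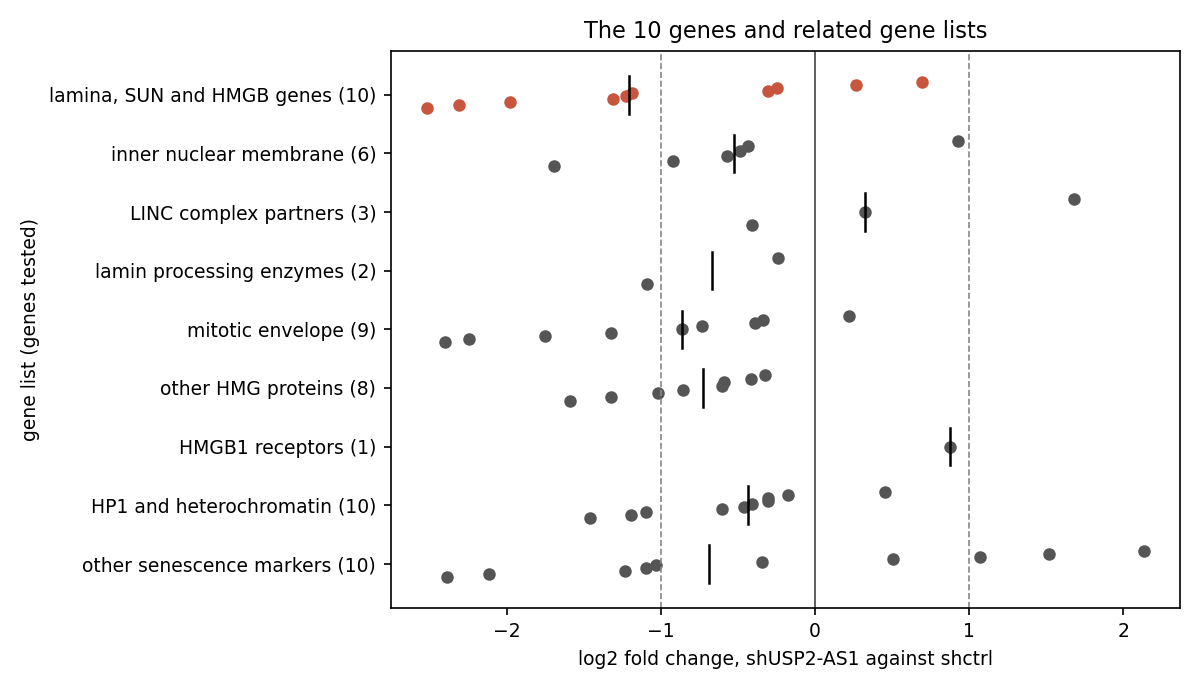
Log2 fold change of shUSP2-AS1 against shctrl for the 10 genes and for the tested genes of 8 related lists (1 point per gene, the number tested in brackets, a bar at each list's median, dashed lines at -1 and 1). The other HMG proteins lie wholly below 0, and the other senescence markers lie on both sides of 0, with MKI67 lowest at -2.39.

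The genes most like a given gene were sought as those whose log2 values, less their own shctrl mean, lay at the smallest root mean square distance over the 4 libraries, among 6092 genes with a mean of at least 100. With 4 libraries this measure reflects mainly the size of the difference between groups. Nearest to LMNB1 were PBK at a distance of 0.03, ORC6 at 0.05 and BIRC5 at 0.06, and nearest to HMGB2 were CENPI at 0.04, SPAG5 at 0.07 and TK1 at 0.07. PBK encodes a mitotic kinase, ORC6 a subunit of the origin recognition complex, BIRC5 survivin, CENPI a centromere protein, SPAG5 a spindle protein and TK1 thymidine kinase. Near LMNA were ATP1B3 and FSCN1, nearest to SUN1 were PSMC1, KIF1C and MFN1, and nearest to SUN2 were SESN1, PRKY and MEAK7, all at distances of at most 0.0147.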

How the data were processed

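Poly(A) RNA of A549 cells was sequenced from 2 libraries per group. The submitters' processing notes name HISAT2 2.0.5, featureCounts 1.5.0-p3 and DESeq2 1.20.0 with the build hg38. The deposited values are a normalized signal, the read count of a gene scaled by a size factor of its library. Whole reads were recovered from 100% of them, within 0.01 reads. The authors also deposited a log2 fold change and p-value per gene from their own comparison, which were not used beyond testing how the table had been filtered. In the column names, scr was read as the scrambled control and the other name as the USP2-AS1 shRNA. Replicates were matched by number. The labels spell out neither name, so the assignment of columns to samples was inferred. No other sample columns were present.

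For the 6812 genes averaging 10 or more, log2(value + 1) was fitted with limma 3.58.1 (R 4.3.3), with a trend and Benjamini-Hochberg adjustment. This left out 16 genes. Recovered reads were used for edgeR 4.0.16 and DESeq2 1.42.0 as alternatives. The fit was tested on simulated data in which only a small part of the genes differed. In the deposited values nearly all genes had been selected for a difference, so the simulation does not measure false calls here. The study describes the libraries as biological replicates. The limma standard errors and p-values are moderated, with each gene's variance drawn toward a trend over all tested genes. They therefore do not measure that gene's own spread between these 4 libraries alone, and a gene with a wider spread gets a smaller standard error than its own values give. Counting noise alone did not account for the spread of replicates (chi-square per degree of freedom, 3.75 and 3.84). The genes and lists were chosen with earlier results of these data known. Named were the 10 genes, from each list the 4 tested genes with the largest absolute log2 fold change, the called genes where there were at most 4, nesprin, HP1 and HMG genes and BANF1 and ZMPSTE24 by symbol, the check genes USP2-AS1, CDKN1A and E2F1, and the 3 nearest genes to LMNB1, HMGB2, LMNA, SUN1 and SUN2. Some genes that this rule names are not reported here. The other names in the lists (ICMT, CHMP4B, ASF1A, and the remaining called senescence markers) and the overlapping genes and pseudogenes were chosen after their values were seen.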

Additional observations from a re-analysis of the deposited data

How the results depend on the processing

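The 10 genes kept their direction under all alternatives run, which were a pseudocount of 0.1, other filters, RLE, TMM and upper quartile scaling, edgeR, DESeq2, the replicate block, the test against a fold change of 2 and each library left out. Other filters, the replicate block and the test against a fold change of 2 leave each log2 fold change as it was by construction, so direction could not change there. Leaving out a single library could not reverse a direction either, since the groups did not overlap for any of the 10 genes. The count of 6 called lower remained 6 except with no fold change threshold, where it was 8 and 2 were higher. The log2 fold changes of LMNA (0.27), EMD (-0.25), SUN1 (-0.31) and SUN2 (0.69) were not past the test against a fold change of 2 (adjusted p = 1.00 each, limma). Over the other settings the log2 fold change lay between -2.49 and -2.13 for LMNB1, -2.66 and -2.39 for HMGB2 and 0.15 and 0.33 for LMNA. Of the genes in the 8 other lists, 39 were lower and 10 higher with no fold change threshold, and 2 were called higher in the test against a fold change of 2. With single libraries left out, the log2 difference of the ratio of LMNA to LMNB1 lay between 2.42 and 2.74. With the replicate block, 6 of the 10 genes were again called lower, and the log2 fold change of LMNB1 was -2.31, which this balanced block cannot alter. The replicate numbers did not pair the libraries (deviations from the group means correlated at -0.04 over genes), and the block changed no call among the 10 genes. The length of the canonical transcript was added after the data were examined. Depth on the listed genes gave 151 to 1918 reads per library for LMNB1 and HMGB2.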
